A study of Homo sapiens with 2 samples.

Results

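C-to-U edit sites in the 5' untranslated regions (5'UTRs) of mRNAs were taken from 2 long-read libraries of HEK293T cells, an embryonic kidney-derived line that the labels also name HEK293XT. The labels call the libraries in situ RBFOX2-APOBEC1 STAMP and in situ APOBEC1 only STAMP, and the steps given next are those the paper describes for INSCRIBE. In RBFOX2-INSCRIBE, fixed cells were incubated with an antibody against the RNA-binding protein RBFOX2. A fusion of the cytosine deaminase APOBEC1 and a nanobody that binds rabbit antibodies was then added. In the enzyme-only control the fusion was added without the antibody, so both libraries carry the edits of the enzyme itself. Each group held 1 library, so every comparison below is between these 2 libraries and not between conditions, and no p-value is given. The intervals are exact 95% intervals that cover counting error only.

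A listed position was a member when it lay in the 5'UTR of the GENCODE Ensembl canonical transcript on the same strand, lay in no annotated coding sequence (CDS) or 3'UTR, and was listed in only 1 library. This gave 3884 of 109357 unshared RBFOX2 positions, in 2008 genes, and 4120 of 91111 unshared enzyme-only positions, in 2070 genes. Together these were 8004 of 200468 positions in 3067 genes. A member was found in both libraries for 1011 genes, which is 50.3% of the RBFOX2 genes and 48.8% of the enzyme-only genes. The same share for sites of other regions is not given here, so this overlap is not read as particular to 5'UTRs. Because shared positions were left out, no member has a value in both libraries.

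The 5'UTR is the stretch between the cap and the start codon that the small ribosomal subunit scans for the first suitable AUG. Upstream AUGs open short reading frames that often lower translation of the main coding sequence, and a C-to-U change in the triplet ACG makes a new AUG. APOBEC1 prefers cytosines that follow A or U and lie in weakly structured RNA, while 5'UTRs are rich in G and C. RBFOX2 is a splicing regulator that recognises UGCAUG, mostly in introns and 3'UTRs.

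The sequences below were read from hg38, are written as RNA 5' to 3' on the strand of the gene, and carry the edited cytosine in capitals, or the whole ACG where the change makes an AUG. The RPS2 site is shown because it lies 4 nt from the annotated transcript start in a run of pyrimidines, the kind of start that marks 5' terminal oligopyrimidine (5'TOP) mRNAs. RPS2 encodes a protein of the small ribosomal subunit (chr16:1964811-1964835, minus strand). The bases before the start are genomic sequence upstream of the annotated transcript.
RPS2: ggucucguucuuCuuuuccgacaaa

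The following sites are shown because they turn ACG into AUG and had the most converted reads among such sites. RPAP3, a cochaperone that helps to assemble RNA polymerases (chr12:47705974-47705998, minus strand), SRP9, a subunit of the signal recognition particle (chr1:225777863-225777887, plus strand), and EIF5, a translation initiation factor (chr14:103334398-103334422, plus strand), were listed in the RBFOX2 library. SNRPA1, a protein of the U2 snRNP (chr15:101295204-101295228, minus strand), DESI2 (chr1:244653192-244653216, plus strand) and MREG, melanoregulin (chr2:216013517-216013541, minus strand), were listed in the enzyme-only library.
RPAP3: cugcggggcugACGggguggcagug
SRP9: gcgacucccggACGuagguaguuug
EIF5: cuccggcgcugACGgguguggaccg
SNRPA1: ggcgggaggccACGggcuuuccaca
DESI2: ggccgggcuguACGcuuagugcccg
MREG: ccccaaacaaaACGcaaggagagga

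The last set shows the range of contexts. PPIB encodes cyclophilin B of the endoplasmic reticulum (chr15:64162993-64163017, minus strand) and held the enzyme-only site with the most converted reads, after a G. UBE2T, a ubiquitin-conjugating enzyme of the Fanconi anaemia pathway (chr1:202335752-202335776, minus strand), had a site 10 nt before its start codon. RPS13, a ribosomal protein (chr11:17077630-17077654, minus strand), was edited at the base directly before its AUG, 11 nt from the nearest UGCAUG.
PPIB: cuguccgggcugCuuucgccuccgc
UBE2T: ugguuccuucuaCuuggggaucaug
RPS13: gaucgccgccauCaugggucgcaug

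For each site the deposited tables give the number of reads with the conversion and the number of reads of the gene, and their quotient, the edit fraction, is therefore not the editing level at the position. Every listed fraction exceeded 0.002, so a gene of 500 or more reads has no listed site with 1 converted read. The tables list 10199 genes with 2431345 reads in all for RBFOX2 and 10182 genes with 2233600 reads for enzyme-only. Of 6 markers of HEK293-type cells, 2 were listed in each library, VIM and KRT18 for RBFOX2 and KRT8 and KRT18 for enzyme-only. Of 6 mature kidney markers only LRP2 was listed, and none of 3 blood markers was. A gene appears only where it has an edit, so a missing marker is not shown to be unexpressed.

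5'UTRs carried fewer edit sites than their cytosines would give. Members made up 3.55% (3.44 to 3.66%) of all unshared sites in RBFOX2-INSCRIBE and 4.52% (4.39 to 4.66%) in the control. The expected number was computed within each gene from the cytosines of its canonical 5'UTR, CDS and 3'UTR that lie in exons of the deposited isoform models. Observed sites over expected sites in the 5'UTR were 0.463 (0.448 to 0.477) for RBFOX2 and 0.604 (0.586 to 0.623) for enzyme-only. The same quotient was 0.919 and 0.992 in the CDS and 1.27 and 1.11 in the 3'UTR, so 5'UTRs were lowest in both libraries.

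**Figure D1:**
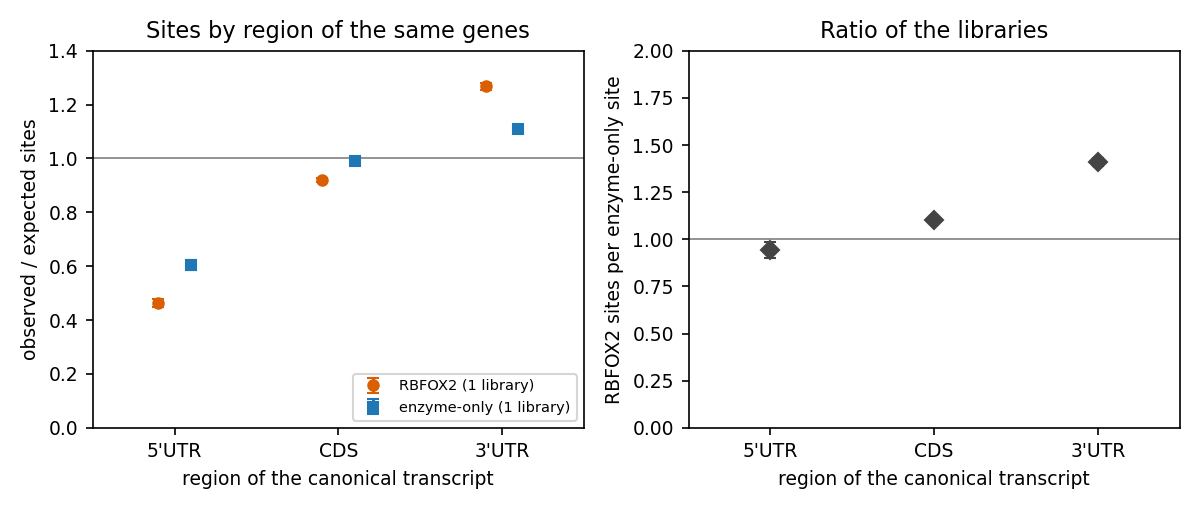
Left, observed over expected edit sites (vertical axis, no unit) in the 5'UTR, CDS and 3'UTR of the same genes for each library; right, number of RBFOX2 sites per enzyme-only site in each region. Points are single libraries, bars exact 95% intervals of the counts, and grey lines mark 1. The 5'UTR is lowest in both panels, at 0.463 and 0.604 on the left and 0.943 on the right.

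Part of the deposited isoform models did not hold these positions in an exon. Models that start downstream of a site and models that splice it out were not told apart. A median of 50% of the isoform models of a gene held a 5'UTR member, against 75% for CDS sites and 85.7% (RBFOX2) and 86.7% (enzyme-only) for 3'UTR sites. When each cytosine was weighted by the number of models that hold it, observed over expected in the 5'UTR was 0.656 for RBFOX2 and 0.860 for enzyme-only. The part of missing transcript ends in the low number of 5'UTR sites was not tested further, since the tables hold no read number per position.

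The number of RBFOX2 sites per enzyme-only site was lowest in 5'UTRs. These ratios are of plain counts and are not scaled by the totals of 109357 RBFOX2 and 91111 enzyme-only unshared sites. For each enzyme-only site in a 5'UTR the RBFOX2 library had 0.943 sites (0.902 to 0.985), against 1.10 (1.09 to 1.12) in the CDS and 1.41 (1.39 to 1.43) in the 3'UTR. With the same minimum number of converted reads for a gene in both libraries, the 5'UTR value was 1.01 (0.961 to 1.05), the CDS value 1.17 and the 3'UTR value 1.51. Counting only sites that 2 or more converted reads support, it was 1.17 (0.995 to 1.37) in 5'UTRs and 2.40 (2.30 to 2.49) in 3'UTRs. Both of these 5'UTR intervals include 1, so a lower plain count of RBFOX2 sites in 5'UTRs was not seen beyond counting error under either minimum. The share of a library's sites that lay in 5'UTRs stayed lower for RBFOX2. With 2 or more converted reads it was 2.20% (1.97 to 2.44%) for RBFOX2 and 3.42% (3.05 to 3.83%) for enzyme-only. With the common minimum the RBFOX2 share was also lower, and the intervals of the libraries did not overlap. The order of the regions was the same under each of these settings.

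Most 5'UTR sites rested on a single read. At least 2 converted reads were counted at 344 RBFOX2 members, 8.86% (7.98 to 9.79%), and at 295 enzyme-only members, 7.16% (6.39 to 7.99%). The share was 12.1% and 9.25% in the CDS and 19.5% and 11.5% in the 3'UTR of the same libraries. The median fraction of the members was 0.448% and 0.469%, at a median of 234 and 221 reads of the gene. A fraction of 30% or more was listed for 6 RBFOX2 and 14 enzyme-only members, which were not separated from genomic variants.

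The best supported members named here had between 7 and 31 converted reads. In the RBFOX2 library the RPS2 site shown above had 31 converted of 13253 reads, the highest number in either library, at a depth where fewer than 27 would not have been listed. The next sites were in SNRNP70, the main protein of the U1 snRNP, with 9 of 3066, EBP, a sterol isomerase of cholesterol synthesis, with 7 of 671, TOMM20, a receptor of mitochondrial import, with 7 of 1788, and RPAP3 with 7 of 156. TOMM20 was edited at the first base of its annotated transcript. RPAP3 had 138 reads in the enzyme-only library, where 1 converted read would have been listed, and the site was not listed there.

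In the enzyme-only library PPIB had 13 converted of 2326 reads. It was followed by HNRNPC, a nuclear protein that binds uridine tracts, with 10 of 3926, and NPM1, the nucleolar chaperone nucleophosmin, with 8 of 3862. For NPM1 the RBFOX2 minimum was 10 converted reads, so the same number of conversions would have gone unlisted. For HNRNPC it was 9, so 10 would have been listed. RPS2 and TOMM20 were not listed in the enzyme-only table and PPIB was not listed in the RBFOX2 table, so their reads there are unknown.

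Cytosines after A or U were edited more often than other 5'UTR cytosines. A or U came directly before 52.3% (50.7 to 53.9%) of RBFOX2 members, where the cytosines of the same 5'UTRs would give 31.5%, and before 47.6% (46.0 to 49.1%) of enzyme-only members, where they would give 30.8%. Observed over expected was 1.71 after U, 1.59 after A, 0.726 after C and 0.671 after G in the RBFOX2 library. The enzyme-only values were 1.60, 1.45, 0.837 and 0.682 in the same order. The intervals of the 2 libraries did not overlap for C and overlapped for the other 3 bases.

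The base after the site also differed from the pool. U followed 32.7% of RBFOX2 members and 32.6% of enzyme-only members, 1.45 and 1.47 times the expected share. G followed 22.1% and 22.3%, 0.757 and 0.766 times the expected share, so CpG cytosines were listed less often than their number would give. A or U on both sides was found at 26.0% of RBFOX2 members (1.90 times expected) and 22.2% of enzyme-only members (1.72 times). G or C on both sides was still found at 25.7% and 28.2%. The 15 bases on each side of a member held on average 64.0% G and C for RBFOX2 and 65.2% for enzyme-only, against 66.5% and 67.0% expected.

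Sites with more converted reads had A or U before them more often. The share rose from 50.6% (48.9 to 52.3%) at RBFOX2 members with 1 converted read to 67.3% (61.4 to 72.8%) with 2 and 80.6% (69.5 to 88.9%) with 3 or more. For enzyme-only members it was 46.6% (45.0 to 48.2%), 59.7% (53.0 to 66.2%) and 63.8% (51.3 to 75.01%). The 3540 and 3825 sites with 1 converted read therefore differed from the better supported sites of the same library in their sequence. Sequencing errors and rare edits at such sites cannot be told apart in these tables.

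**Figure D2:**
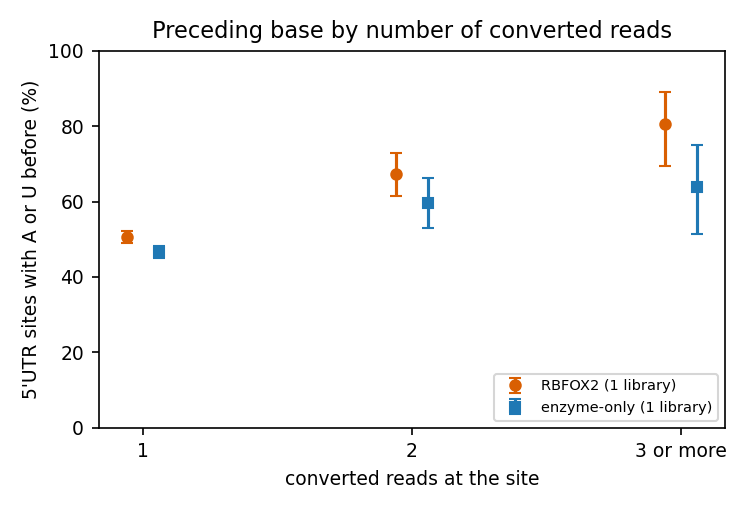
Share of 5'UTR sites with A or U directly before the edited cytosine (vertical axis, percent) by the number of converted reads at the site, for each library. Points are single libraries and bars exact 95% intervals; the share goes from 50.6% to 80.6% for RBFOX2 and from 46.6% to 63.8% for enzyme-only.

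In absolute terms the share with A or U before was lower in 5'UTRs than elsewhere. It was 67.9% in the CDS and 78.4% in the 3'UTR for RBFOX2, and 61.8% and 69.5% for enzyme-only. The expected share was also lowest in 5'UTRs, at 31.5% for RBFOX2, against 45.8% in the CDS and 52.9% in the 3'UTR. Set against all other cytosines of the region, those after A or U were listed 2.39 times as often in 5'UTRs, 2.51 times in the CDS and 3.24 times in the 3'UTR of the RBFOX2 library. The enzyme-only values were 2.04, 2.00 and 2.22.

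Sites were sparse at the very start of the transcript. Observed over expected was 0.658 (0.588 to 0.734) in nucleotides 1 to 20 for RBFOX2 and 0.694 (0.624 to 0.771) for enzyme-only. It was 0.895 and 0.880 from 21 to 50 nt, between 1.05 and 1.11 in each bin from 51 to 500 nt, and 1.33 (1.16 to 1.52) and 1.26 (1.09 to 1.45) beyond 500 nt. The median member lay 106 nt from the start for RBFOX2 and 107 nt for enzyme-only, where 95 nt was expected in both libraries. In the first 20 nt a median of 80% as many isoform models held the site as held the start codon. Weighted by models, the first bin was 0.795 (0.711 to 0.887) and 0.841 (0.756 to 0.933), which was still under 1.

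Toward the start codon the pattern was the opposite. Within 20 nt before the AUG observed over expected was 1.24 (1.15 to 1.34) for RBFOX2 and 1.13 (1.04 to 1.22) for enzyme-only. From 21 to 50 nt it was 1.08 (0.999 to 1.16) and 1.18 (1.11 to 1.27), and it fell to 0.750 (0.630 to 0.886) and 0.823 (0.694 to 0.970) beyond 500 nt. Weighting by isoform models brought the 20 nt before the AUG to 1.14 (1.06 to 1.24) for RBFOX2 and 1.03 (0.952 to 1.11) for enzyme-only. The median distance to the start codon was 81 and 79 nt, where 93 and 92 nt were expected, and the intervals of the 2 libraries overlapped in every bin of both distances. Distance from the start and distance to the AUG add up to the length of the 5'UTR, so the 2 patterns are not independent.

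**Figure D3:**
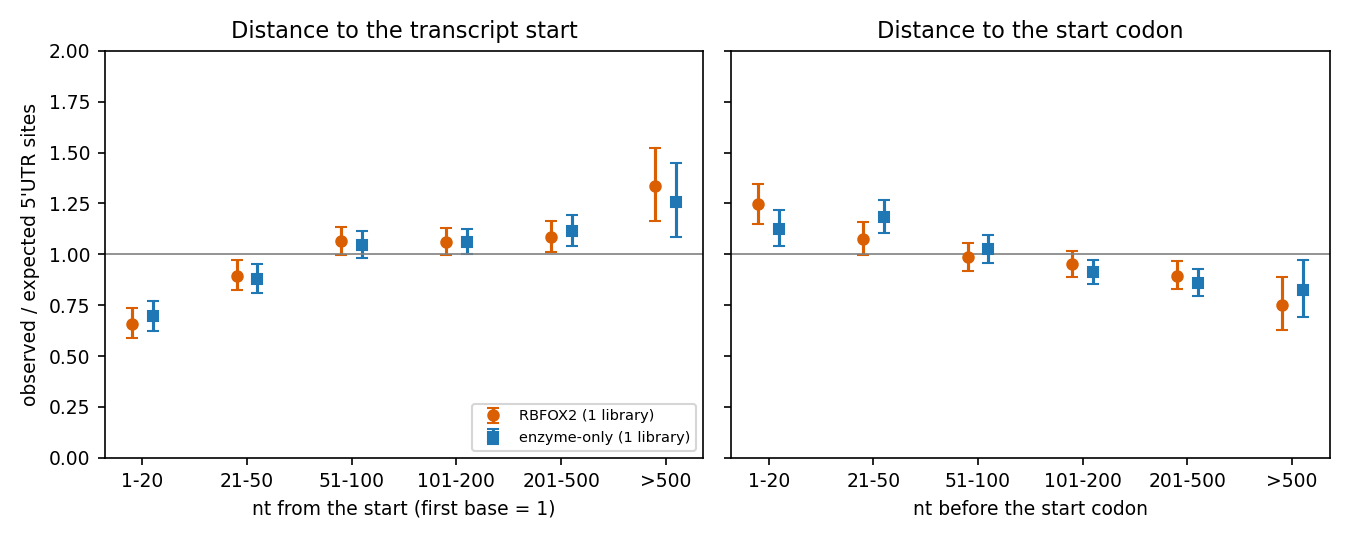
Observed over expected 5'UTR sites (vertical axis, no unit) in bins of spliced distance, in nucleotides from the transcript start (left) and before the start codon (right). Points are single libraries, bars exact 95% intervals of the counts and the grey line marks 1. Both libraries lie lowest in the first 20 nt, at 0.658 and 0.694, and highest near the start codon on the right.

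Single positions near the AUG had few sites. At the base directly before the AUG 54 of 3207 cytosines were listed for RBFOX2, 1.68% (1.27 to 2.19%), and 62 of 3202 for enzyme-only, 1.94% (1.49 to 2.48%), against 1.02% and 1.09% of all 5'UTR cytosines of listed genes. Against the number expected within the same genes this was 1.29 (0.968 to 1.68) and 1.43 (1.10 to 1.84), so only the enzyme-only interval lies above 1. At the fourth base before the AUG the shares were 1.79% and 1.45%, and the quotients 1.37 (1.03 to 1.80) and 1.10 (0.795 to 1.49). RBFOX2 quotients were higher at 6, 10 and 12 nt before the AUG, at 1.57 (1.04 to 2.27), 1.49 (1.06 to 2.05) and 1.68 (1.21 to 2.27). The enzyme-only quotients there were 1.12, 0.808 and 1.07, with intervals that include 1. The fourth base is therefore not read as particular. Examples within 20 nt of the AUG were ATP6V0B, a subunit of the vacuolar proton pump, with 6 converted of 1568 reads at 11 nt, and UBE2T with 4 of 565 at 10 nt, both in the RBFOX2 library. In the enzyme-only library CYCS, cytochrome c, had 4 of 1808 at 18 nt and FOXK2, a forkhead transcription factor, had 3 of 231 at the base directly before its AUG. Only 4.55% of the FOXK2 isoform models held that base.

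Near the transcript start the best supported RBFOX2 sites after RPS2 and TOMM20 were in SRSF7, a serine- and arginine-rich splicing factor, with 7 of 2405 reads at nucleotide 18. In the enzyme-only library they included PPIB at nucleotide 18 and STK25, a serine/threonine kinase, with 4 of 487 at nucleotide 6. At the first nucleotide of the transcript 5 of 617 cytosines were listed for RBFOX2, 0.810% (0.264 to 1.88%), and 13 of 609 for enzyme-only, 2.13% (1.14 to 3.62%), and these intervals overlap.

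Most sites lay in the first exon, 81.5% of RBFOX2 and 83.8% of enzyme-only members, where 86.0% and 86.8% were expected. The exon of the start codon held 66.0% and 67.6%, against 62.9% and 65.0%. The 5'UTRs of the members had a median length of 219 and 217 nt. A member lay inside a reading frame opened by an AUG already present upstream 594 times in each library, 15.3% and 14.4% of members, 1.10 (1.02 to 1.19) and 1.05 (0.964 to 1.13) times the expected share. A C-to-U change would put a stop codon into such a frame at 19 RBFOX2 and 16 enzyme-only members, 0.719 (0.433 to 1.12) and 0.596 (0.341 to 0.969) times the expected number.

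Edits that would create an upstream AUG were more frequent than the ACG triplets of the same 5'UTRs. They made up 180 RBFOX2 members in 167 genes, 4.63% (3.99 to 5.34%) where 2.77% was expected, and 144 enzyme-only members in 138 genes, 3.50% (2.96 to 4.10%) where 2.62% was expected. Observed over expected was 1.67 (1.44 to 1.94) and 1.33 (1.12 to 1.57). Among members with A before the site, however, ACG took 23.3% (20.4 to 26.5%) for RBFOX2 and 20.03% (17.2 to 23.1%) for enzyme-only, and the expected shares of 22.1% and 21.8% lie within these intervals. The higher frequency of ACG thus went with that of A before the site.

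The frames these AUGs would open fell into 3 kinds. Of the RBFOX2 sites 104 would open a frame that ends before the start codon, 57 a frame that overlaps the coding sequence in another frame and 19 an in-frame extension of the protein. The enzyme-only numbers were 70, 50 and 24. Each share lay within counting error of the share expected from the ACG triplets of the same genes, for example 57.8% (50.2 to 65.1%) against 53.0% for RBFOX2 frames ending before the start codon. The median frame ending before the start codon was 15 codons long for RBFOX2 and 15.5 for enzyme-only. Within 50 nt of the start codon lay 54 RBFOX2 and 53 enzyme-only ACG sites (intervals of 23.4 to 37.3% and 28.9 to 45.2% of all ACG sites), where 28.6% and 29.8% were expected.

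**Figure D4:**
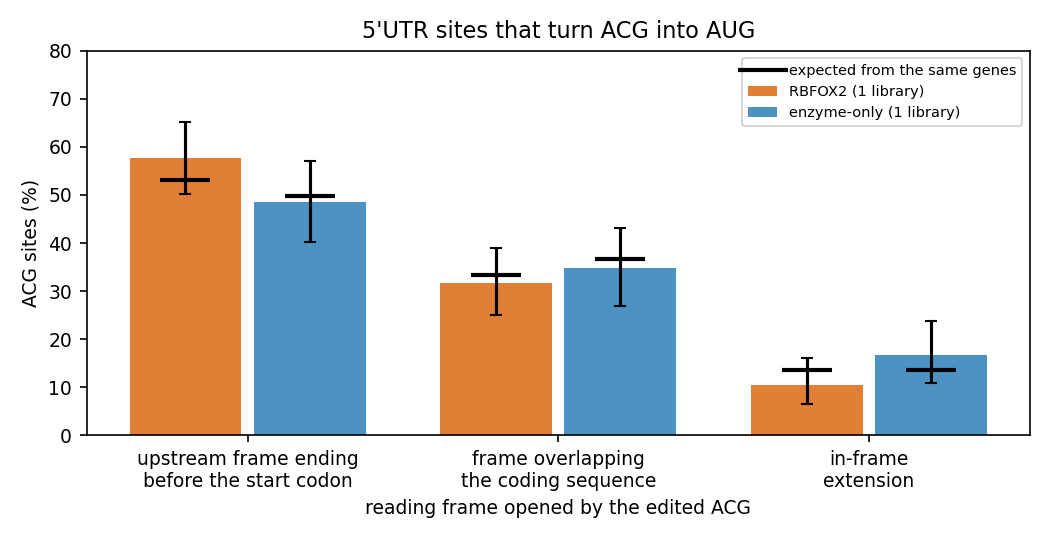
Share of ACG sites (vertical axis, percent) by the reading frame that the edited triplet would open, for each library. Bars are single libraries with exact 95% intervals, and black dashes give the share expected from the ACG triplets of the same 5'UTRs; every dash lies within its interval, for example 53.0% in 50.2 to 65.1%.

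The ACG sites shown above cover the 3 kinds. The RPAP3 edit would extend the protein in frame, to a frame of 679 codons, in 7 of 156 reads. SRP9, with 5 of 1453 reads, would gain an AUG directly followed by the stop codon UAG, so its frame is 1 codon long. EIF5, with 5 of 1631 reads, would gain a frame of 76 codons ending before the start codon. In the enzyme-only library SNRPA1, with 4 of 775 reads, and DESI2, with 4 of 805 reads, would be extended in frame, to 268 and 231 codons. MREG, with 2 of 32 reads, would gain a frame of 70 codons that overlaps its coding sequence. At least 2 converted reads were counted at 23 of the 180 RBFOX2 sites and 16 of the 144 enzyme-only sites. No protein was measured.

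Few 5'UTR sites lay near UGCAUG. Within 50 nt of the motif on the same strand of the genome were 39 RBFOX2 members, 1.00% (0.715 to 1.37%), in 27 genes, and 25 enzyme-only members, 0.607% (0.393 to 0.894%), in 16 genes. The cytosines of the same 5'UTRs would give 0.868% and 0.669%, so observed over expected was 1.16 (0.822 to 1.58) and 0.907 (0.587 to 1.34). Neither differed from 1 by more than counting error, and the 2 intervals overlap. In the CDS the quotient was 1.22 (1.16 to 1.28) for RBFOX2 and 0.998 (0.939 to 1.06) for enzyme-only, and in the 3'UTR 1.38 (1.33 to 1.44) and 0.880 (0.820 to 0.943). The interval of the RBFOX2 5'UTR quotient includes 1 and the CDS and 3'UTR values.

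Only 3 RBFOX2 members and 1 enzyme-only member near UGCAUG had at least 2 converted reads. The RBFOX2 sites were in AMZ2, a metallopeptidase gene, with 2 of 515 reads at 24 nt from the motif, RPS13 with 2 of 545 at 11 nt and SLC39A3, a zinc transporter, with 2 of 666 at 32 nt. The enzyme-only site was in SNRPD3, a core protein of the spliceosomal snRNPs, with 3 of 855 at 37 nt.

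Members were spread over many genes. Of the 3067 genes 1450 held 1 member, 1199 held 2 to 4, 323 held 5 to 9 and 95 held 10 or more. GPBP1, a transcriptional regulator that binds GC-rich promoters, held the most, 26 RBFOX2 and 15 enzyme-only sites, which is 22.0% of its 186 5'UTR cytosines. TAF7, a subunit of the general transcription factor TFIID, held 16 and 11, and AKIRIN2, a nuclear factor needed for import of proteasomes into the nucleus, held 14 and 10. The intervals of the log2 ratios of these 3 genes include 0. They are wide, for GPBP1 from -0.44 to 1.55, so they do not show equal numbers either.

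The log2 ratio of RBFOX2 to enzyme-only members was computed per gene with 0.5 added and scaled by the totals of unshared sites. Among the 95 genes with at least 10 members, 13 were over 1, against 19.4% of the 5289 genes with at least 10 sites of any region. This is 13.7% (7.49 to 22.3%) of the 95, which includes the share over all regions. Under -1 were 25 genes, 26.3% (17.8 to 36.4%), against 17.2% over all regions. The median log2 ratio was -0.26 for the 5'UTR genes and 0.07 over all regions. The interval of the share under -1 thus lies above the share over all regions. The 5'UTR genes had a median of 12 sites and the others 25, so their ratios carry more counting error. The ratios are also scaled by totals over all regions, of which 5'UTR sites were 3.55% for RBFOX2 and 4.52% for enzyme-only. The parts of site number and of this scaling in the counts were not tested.

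The highest ratios were those of UBN1, a subunit of a histone chaperone complex, with 14 RBFOX2 and 1 enzyme-only site (log2 ratio 3.01, 0.83 to 8.95), UBE3A, a ubiquitin ligase, with 11 and 1 (2.68), and TFDP2, the dimerisation partner of E2F factors, with 12 and 2 (2.06). Their other sites leaned the same way, with 10 and 3 elsewhere in UBN1, 48 and 15 in UBE3A and 17 and 9 in TFDP2. FAM3A, a member of a cytokine-like family, held 20 and 5 (1.63, 0.28 to 3.51), and 32 and 10 elsewhere. All of these sites in UBN1 and TFDP2 had 1 converted read.

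The lowest ratios went with the read minimum. ARF4, a small GTPase of the Golgi, held 0 RBFOX2 and 11 enzyme-only sites, PSMG3, a proteasome assembly chaperone, held 1 and 14 (-3.54), and C1orf122 held 2 and 18 (-3.15). These 3 genes had 515, 546 and 532 RBFOX2 reads and 462, 479 and 466 enzyme-only reads, so the control alone could list their sites with a single converted read. At least 2 converted reads were counted at 0 RBFOX2 and 3 enzyme-only sites in ARF4, 1 and 2 in PSMG3 and 2 and 0 in C1orf122. Elsewhere ARF4 held 24 and 34 sites, PSMG3 3 and 32 and C1orf122 2 and 19. The part of the read minimum in these ratios was not tested. ZFAND5, a zinc finger protein that stimulates the proteasome, held 7 and 27 (-2.14, -3.65 to -0.98) at 282 and 261 reads, where 1 read sufficed in both. Its sites elsewhere numbered 32 and 50. With a common minimum 9 genes were over 1 and 17 under -1. Fewer sites qualify then, and the share over all regions under that minimum is not given here. No departure from it is therefore read from these counts.

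**Figure D5:**
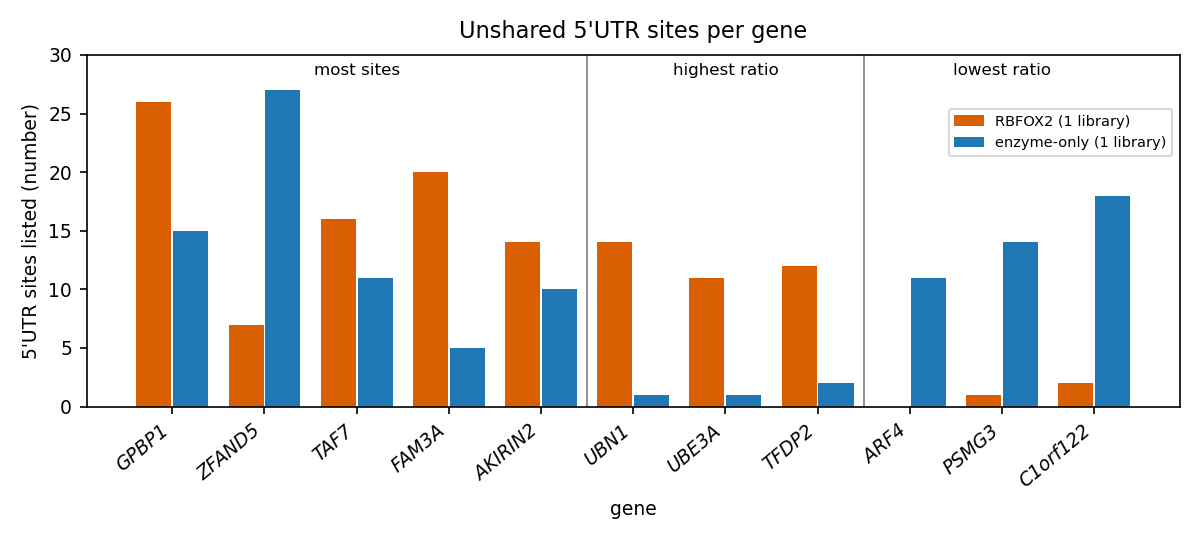
Number of unshared 5'UTR sites (vertical axis) in each library for the 5 genes with the most sites, and for the genes at both ends of the ratio of RBFOX2 to enzyme-only sites, 3 at each end. Bars are single libraries; GPBP1 has 26 and 15 sites and ARF4 0 and 11.

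5'TOP mRNAs encode the ribosomal proteins and translation factors and start with a pyrimidine tract through which growth signals control their translation. The set of 103 genes used here was chosen by gene name, so it also holds genes such as RPL10L and RPL39L. Their start sequences were not checked. Of the set, 75 genes had a site of any region in RBFOX2-INSCRIBE and 68 in the control. A member was held by 15 and 21 of them, with 26 and 33 members in all. Among the listed genes of this kind with a canonical 5'UTR, 20.5% (11.98 to 31.6%) and 31.8% (20.9 to 44.4%) held a member, against 24.8% and 25.7% of all 8102 and 8039 such genes. These shares were not taken at equal read numbers. Genes such as RPL4, with 5106 RBFOX2 and 4212 enzyme-only reads, cannot list a site with a single converted read. Others of the set, such as RPL21 with 241 and 216 reads, can. The median over all genes in the tables was 96 and 87 reads. The part of the read minimum in the shares was not tested. Within 20 nt of the start lay 8 RBFOX2 members, where 9.31 were expected, and 13 enzyme-only members, where 12.6 were expected. Their quotients of 0.859 (0.371 to 1.69) and 1.03 (0.549 to 1.76) include both 1 and the value over all 5'UTRs. A or U came before 61.5% (40.6 to 79.8%) and 42.4% (25.5 to 60.8%).

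Genes with well-known regulatory upstream reading frames were a list of 20, of which 17 and 16 were listed and 8 and 5 held a member, with 16 and 8 members. These are 47.1% (23.0 to 72.2%) and 31.2% (11.02 to 58.7%) of the listed genes, and both intervals include the 24.8% and 25.7% over all genes. ODC1, the rate-limiting enzyme of polyamine synthesis, held 3 RBFOX2 and 2 enzyme-only sites, and AZIN1, its antizyme inhibitor, held 1 and 3. PPP1R15A, the stress-induced phosphatase subunit GADD34, held 3 and 0, IFRD1 held 3 and 1, and AMD1, a decarboxylase of polyamine synthesis, held 2 and 0. No site in these genes had more than 3 converted reads. Of 6 genes with a 5' iron-responsive element, FTL, the ferritin light chain, held 1 RBFOX2 member with 5 of 2020 reads at nucleotide 14. FTH1, the ferritin heavy chain, with 2913 and 2654 reads, held none in either library. At such read numbers a site with a single converted read is not listed. The absence of FTH1 members therefore does not show that its 5'UTR was unedited.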

How the data were processed

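The 2 libraries were assigned to groups by their descriptions in the labels, where the RBFOX2 library is replicate 2 and the enzyme-only library replicate 1. The members, lists and measures were chosen with earlier results of these data known. Per the labels the libraries were made with a PacBio Iso-Seq kit and hg38 was the build. The study's methods name pbmm2 for alignment and the authors' own code for edit calls, but describe another kit (Kinnex), so they may not apply to these tables. The authors deposited, for each position and library, a count of converted reads, a count of reads of the gene and their quotient as an edit fraction. Isoform models of both libraries were deposited as exon positions without expression, version and settings not given in the sources used here. No value was normalised, and the tables hold no read number at the position, so a fraction understates editing where reads end before the site.

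All 213041 distinct positions are a C in hg38 on their listed strand. Regions, distances and frames came from the spliced canonical transcripts of GENCODE 44. Distance to the start counts its first base as 1. The deposited models do not define the start codon or the start used here. In all, 211 member positions lay in the 5'UTR of more than 1 canonical transcript. The 1 enzyme-only member outside the exons of the models was left out of comparisons with expected numbers. Expected numbers are sums over sites of the share of cytosines of the same gene in a category. Distance to UGCAUG (same strand, genome, any overlap) runs from the nearest motif base. Annotated variants were not removed. Shares have Clopper-Pearson intervals, and quotients Poisson intervals of the observed number.

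The text names the 5 sites per library with the most converted reads at a fraction under 30%, the 5 genes with the most members, the 3 highest and 3 lowest ratios among genes with at least 10 members, and the 3 best supported sites each in ACG, near the start, near the AUG (20 nt) and near UGCAUG (50 nt). Some listed genes with a member were also named. Some genes that this rule takes are not reported here. Alternatives were the read minimum, a common minimum, shared positions kept, another pool of cytosines or definition of the 5'UTR, other windows and a minimum of 5 sites per gene. The code was tested on simulated data. Tools were Python 3.11.15 with numpy 2.4.6, pandas 2.3.3, scipy 1.17.1, pysam 0.24.0 and matplotlib 3.10.9.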

Additional observations from a re-analysis of the deposited data

How the results depend on the processing

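Of 87 alternative values 51 lay within the 95% interval of the reported value (gene counts, within 1.5 times), 34 lay outside it and 2 lay on the other side of 1. Of these, 5 have an interval of their own that holds the reported value, all with at least 2 converted reads: the AUG-creating shares of both libraries and the 3 values given below for enzyme-only alone. With at least 2 converted reads the 5'UTR share was 2.20% for RBFOX2 and 3.42% for enzyme-only, observed over expected 0.244 and 0.408, A or U before the site 70.1% and 60.7% and AUG-creating sites 6.69% and 5.42%. At that minimum the enzyme-only quotient within 50 nt of the transcript start was 0.699 (0.800 for all members), that within 50 nt of the start codon 1.24 (1.16) and the share near UGCAUG 0.339%, and the number of RBFOX2 sites per enzyme-only site was 1.17 (0.995 to 1.37). It was 1.01 (0.961 to 1.05) with a common read minimum, against 0.943. With positions listed in both libraries kept, observed over expected was 0.442 and 0.560, the share with at least 2 converted reads 10.9% and 8.95%, and the enzyme-only 5'UTR share 4.28%. With all eligible cytosines as the pool, observed over expected was 0.494 and 0.644. Without cytosines followed by G, A or U came before 55.1% and 51.4%. With the 5'UTR of any protein-coding transcript, the share of sites was 4.04% and 5.11%. Near UGCAUG lay 0.412% and 0.243% within 20 nt and 3.94% and 3.67% within 200 nt. With a minimum of 5 sites per gene, 68 genes were over a log2 ratio of 1 and 125 under -1, against 13 and 25. More genes enter at that minimum, since 323 held 5 to 9 members besides the 95 with 10 or more. The share over all regions at that minimum is not given here. Weighting by isoform models and the ratio of the libraries were added after seeing the data. The weighting gave 0.656 and 0.860 for the 5'UTR, 0.859 and 0.865 within 50 nt of the transcript start and 1.09 and 1.09 within 50 nt of the start codon. The causes of these moves, other than fewer sites or another definition, were not tested. No paired analysis was possible because each group held 1 library and their label numbers differ. Depth limits the single sites, since 91.1% and 92.8% of them rest on 1 converted read.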

Other observations

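The positions listed in both libraries were left out above. They numbered 315 in 5'UTRs, in 260 genes, with a median of 1 converted read and a median fraction of 0.400% for RBFOX2 and 0.417% for enzyme-only. A or U came before 57.1% (51.5 to 62.7%) of them and G after 20.6% (16.3 to 25.5%), and 11 had a fraction of 30% or more.

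Beyond 500 nt from the transcript start the sites differed most between the libraries in the preceding base. A or U came before 64.5% (57.8 to 70.9%) of the 217 RBFOX2 members there and 49.2% (41.9 to 56.5%) of the 191 enzyme-only members. Their surroundings held on average 53.0% and 54.6% G and C, less than in any bin nearer to the start. At least 2 converted reads were counted at 12.4% (8.36 to 17.6%) and 5.76% (2.91 to 10.1%). The intervals count sites of the same gene as independent, and the number of genes in this bin is not given here. This bin was picked out after its values were seen, and these differences between 2 libraries were not tested.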
